A study of Mus musculus with 4 samples.

Results

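A set of 10 transcription regulators of the early urogenital system was followed in cultured mouse tissue of the AGM (aorta, gonad and mesonephros), where the first haematopoietic stem cells form in the embryo beside the early kidney and the genital ridge. The 10 genes were Osr1, Lhx1, Pax2, Pax8, Wt1, Emx2, Gata4, Lhx9, Six2 and Cited1. They were chosen by name, by matching the symbol in the deposited tables, and all 10 of the 10 were found among the 49997 genes of those tables. RNA was sequenced in 4 libraries. The untreated group held 2 libraries from explants cultured without the compound, and the CCCP group held 2 from explants exposed to CCCP at 5 µM over 48 hours of culture. CCCP is a protonophore, which collapses the proton gradient across the inner mitochondrial membrane. All explants were of the C57BL/6J strain and were kept on filters at the gas-liquid interface in MyeloCult medium with hydrocortisone, so the control explants received that steroid too. The labels name embryonic days E10.5 and E11.5 without saying which library came from which day, the design text names E10.5 alone, and nothing says how many embryos went into a library or whether the 2 libraries of a group came from separate cultures. The p-values below therefore measure the spread between these libraries, which may be technical.

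The mesonephros is a transient kidney made from the intermediate mesoderm, with a nephric duct that runs alongside a row of tubules. Osr1, Lhx1, Pax2 and Pax8 act early in that lineage, Wt1 and Emx2 act in both kidney and gonad, Gata4 and Lhx9 are needed for the coelomic epithelium over the mesonephros to thicken into the genital ridge, and Six2 and Cited1 mark the nephron progenitors that cap the ureteric bud of the permanent kidney. Explants of this region are cut with these tissues attached, so transcripts of the urogenital ridge are read together with those of blood and vessel cells. In bulk RNA, fewer cells of a type and less RNA per cell cannot be told apart.

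The libraries held 37360968 to 48827826 counted reads, and in each group the library numbered 1 was the deeper. Every gene of the set was counted in every library, with between 71 reads (Cited1, untreated replicate 2) and 4307 reads (Lhx1, untreated replicate 1), and all 10 passed the filter on low counts. The labels give the cell type as embryonic HSCs and the design text speaks of c-kit+ cells, whereas the extraction protocol describes RNA of explants and no sort. Ptprc, the pan-leukocyte antigen, stood at 6.85 and 6.81 CPM (reads per megaread of the scaled library) in untreated replicates 1 and 2. In CCCP replicates 1 and 2 it stood at 3.64 and 3.39 CPM. Its mean CPM over all libraries was below that of 9 of the 10 regulators. Other leukocyte markers were higher, with means of 44.4 CPM for Csf1r, 27.8 for C1qa, 16.0 for Cd68 and 10.9 for Adgre1. Itgam and Spi1 had means of 5.08 and 4.96 CPM. These values are not scaled for gene length. A list of 10 hepatic markers summed to 1688 and 965 CPM in untreated replicates 1 and 2, against 53.3 and 106 CPM with CCCP, and its part in the results was not tested.

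To compare genes, CPM was divided by the summed exon length in kilobases (CPM per kb). On that scale Osr1 and Lhx1 led the set. Osr1 (chromosome 12, 9574442 to 9581500, mm10), a zinc finger gene among the earliest of the intermediate mesoderm, had a level of 17.8 ± 5.23 CPM per kb in untreated and 16.3 ± 4.89 in CCCP explants (SD, n = 2 in each group). Lhx1 (chromosome 11, 84517975 to 84525534), a LIM homeodomain factor needed for the nephric duct, had 17.3 ± 4.77 and 14.3 ± 3.98 CPM per kb. Osr1 was above Lhx1 in all 4 libraries, although the ranges of the pair overlapped within each group.

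A middle tier of 5 genes followed. Wt1 (chromosome 2, 105126529 to 105173614), a zinc finger factor of the nephrogenic mesenchyme, podocytes and gonad, stood at 9.86 ± 2.90 CPM per kb untreated and 10.8 ± 1.59 in CCCP. Emx2 (chromosome 19, 59458690 to 59465357), a homeobox gene without which kidney and gonad fail to form, stood at 9.71 ± 2.71 and 10.54 ± 0.340. The ranges of neighbours from Wt1 through Emx2, Six2, Pax8 and Pax2 overlapped in both groups. Compared within single libraries, Pax8 was above Pax2 in every library, and the other neighbours changed order between libraries. The order from Wt1 to Pax8 among neighbours is therefore not resolved. The ranges of Lhx1 and Wt1 overlapped in CCCP too, although Lhx1 was above Wt1 in every library. Six2 (chromosome 17, 85662736 to 85688254), a homeobox gene that keeps nephron progenitors undifferentiated, had 8.06 ± 2.85 and 10.00 ± 3.46 CPM per kb. The paired box genes Pax8 (chromosome 2, 24420551 to 24475599) and Pax2 (chromosome 19, 44746601 to 44838269), which share the task of specifying the nephric lineage, stood at 8.03 ± 2.91 and 7.27 ± 2.82 in untreated explants and at 7.87 ± 2.74 and 6.60 ± 1.82 in CCCP explants. Pax2 per kb was between 0.805 and 0.919 times Pax8 per kb in every library.

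The genital ridge factors and Cited1 were lower on this scale. Gata4 (chromosome 14, 63198914 to 63271712), a zinc finger factor, had 3.36 ± 1.01 CPM per kb untreated and 3.38 ± 2.15 in CCCP. Lhx9 (chromosome 1, 138825186 to 138848839), a LIM homeodomain factor, had 2.46 ± 0.162 and 2.34 ± 0.318. Its summed exons are the longest of the set at 9681 bases, so that its 23.8 CPM untreated, close to the 25.2 CPM of Emx2, became a low value per kb. Cited1 (chromosome X, 102247378 to 102252181), a transcription cofactor, was the lowest in every library at 1.25 to 1.39 CPM per kb. In untreated explants Pax2 lay above Gata4, Gata4 above Lhx9 and Lhx9 above Cited1 with no overlap of the libraries, and in CCCP explants Gata4 and Lhx9 overlapped. The rank of all 10 genes by mean CPM per kb was identical in the groups.

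**Figure D1:**
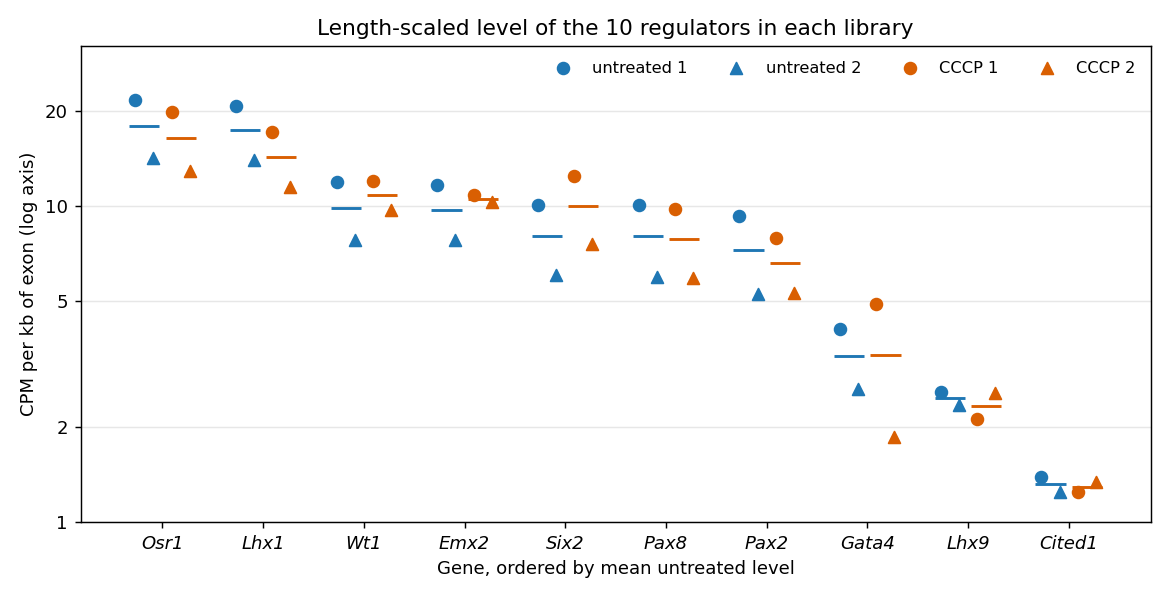
CPM per kb of exon (log axis) of the 10 regulators, with circles for libraries numbered 1, triangles for those numbered 2, blue for untreated, orange for CCCP, and a line at each group mean of 2 libraries. Osr1 and Lhx1 lead with untreated means of 17.8 and 17.3, Cited1 is lowest at 1.32, and for most genes the circles lie above the triangles in both groups.

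The stretch before the gene start is shown for Lhx1, Six2, Pax8 and Pax2, which are among the members that differed most by library below. The 250 bases upstream of the start used in the counting were taken from the RefSeq promoter table of GRCm38.p6, which held windows for 7 of the 10 genes. Each is written 5′ to 3′ on the strand of the gene, and capitals mark a match on either strand to the GC box GGGCGG, the CCAAT box, the TATA box written as TATAAA, the GATA factor site written as AGATAA or the homeodomain core written as TAATTA. The windows are chr11:84525535-84525784 for Lhx1 (minus strand), chr17:85688255-85688504 for Six2 (minus), chr2:24475600-24475849 for Pax8 (minus) and chr19:44746351-44746600 for Pax2 (plus).
Lhx1: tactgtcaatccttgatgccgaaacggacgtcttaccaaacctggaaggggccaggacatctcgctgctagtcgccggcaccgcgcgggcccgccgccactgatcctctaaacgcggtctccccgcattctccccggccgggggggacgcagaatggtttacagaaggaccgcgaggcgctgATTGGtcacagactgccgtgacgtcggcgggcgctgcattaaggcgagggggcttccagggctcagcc
Six2: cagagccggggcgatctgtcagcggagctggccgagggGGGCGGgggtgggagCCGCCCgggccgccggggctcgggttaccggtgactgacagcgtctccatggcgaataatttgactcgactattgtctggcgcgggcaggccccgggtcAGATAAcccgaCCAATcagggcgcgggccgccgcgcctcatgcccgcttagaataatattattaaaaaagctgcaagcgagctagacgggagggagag
Pax8: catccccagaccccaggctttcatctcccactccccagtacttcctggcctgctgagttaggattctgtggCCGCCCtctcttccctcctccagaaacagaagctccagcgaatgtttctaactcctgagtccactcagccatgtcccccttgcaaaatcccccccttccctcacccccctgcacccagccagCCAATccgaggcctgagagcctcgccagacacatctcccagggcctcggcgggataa
Pax2: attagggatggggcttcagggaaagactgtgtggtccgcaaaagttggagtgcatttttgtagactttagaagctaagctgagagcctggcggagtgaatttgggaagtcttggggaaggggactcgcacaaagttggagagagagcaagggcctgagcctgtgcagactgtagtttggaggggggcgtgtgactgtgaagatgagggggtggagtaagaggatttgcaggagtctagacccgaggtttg

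No matches overlapped each other in these windows. Six2 held 2 matches to GGGCGG and Pax8 held 1, where 32.7% of all 32851 windows of the table hold at least 1. Lhx1, Six2 and Pax8 each held 1 CCAAT (33.8% of windows), and Six2 held 1 AGATAA (10.0%). TATAAA (12.4% of windows) and TAATTA (4.8%) were not among the letters of these windows. GC content was 64.8% for Lhx1 and for Six2, 60.4% for Pax8 and 52.8% for Pax2, against a median of 52.4% over all windows, and the number of CpG steps was 26, 26, 6 and 5 against a median of 6. No motif searched was held by all 4 windows. For Pax2 the table holds 2 further windows, at later starts, with 20 and 25 CpG steps, GC contents of 60.8% and 72.8% and 1 GC box each, so the low values of Pax2 belong to the start shown.

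The comparison of CCCP with untreated explants asks whether these regulators shift when the mitochondrial membrane potential is dissipated. None of the 10 passed an adjusted p-value of 0.05 (edgeR quasi-likelihood, p-values adjusted by Benjamini-Hochberg) over all 19837 genes tested, and 0% of all genes passed. At an unadjusted p under 0.05 the count was also 0 of 10, against 14.6% of all genes (5.45% higher and 9.16% lower), and DESeq2 called 0 of 10, against 2.99% of all genes. The adjusted p-values of the 10 ran from 0.629 to 0.995 in edgeR. Their median log2 fold change was -0.03, beside -0.01 over all genes tested. The CCCP and untreated libraries overlapped for every one of the 10, and the groups did not overlap for 48.8% of all genes. A gene that differs by replicate number within both groups overlaps more readily, and 8 of the 10 were higher in number 1 in both. The overlap is therefore not read as a smaller response to CCCP.

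Among the early nephric genes, Lhx1 had the lowest log2 fold change. It stood at 86.0 and 58.0 CPM in untreated replicates 1 and 2 and at 71.0 and 47.6 CPM in CCCP replicates 1 and 2. CCCP replicate 1 was therefore above untreated replicate 2, and the log2 fold change of -0.28 had a standard error of 0.255 (edgeR adjusted p 0.629). Between same-numbered libraries the CCCP level was 0.826 times the untreated level for number 1 and 0.821 times for number 2. Osr1 stood at 43.3 and 28.4 CPM untreated and at 39.8 and 25.9 CPM in CCCP, with a log2 fold change of -0.13 (SE 0.275, edgeR adjusted p 0.859). It too was slightly lower in CCCP within each number, at 0.920 and 0.913 times.

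Pax2 stood at 41.8 and 23.8 CPM untreated and at 35.6 and 23.97 CPM in CCCP. Pax8 stood at 25.9 and 15.3 CPM untreated and at 25.2 and 15.2 CPM in CCCP. For both paired box genes the gap between the replicates of a group exceeded any gap between same-numbered libraries of different groups. Their log2 fold changes were -0.14 (SE 0.308) for Pax2 and -0.03 (SE 0.332) for Pax8, with edgeR adjusted p-values of 0.859 and 0.977. The exons of Pax8 share 87 bases, 3.4% of their length, with a predicted gene on the other strand that held at most 6 reads. Strand was not used in the counting, and reads touching both genes were dropped.

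The genes shared by kidney and gonad had positive log2 fold changes within their error. Wt1 stood at 36.8 and 24.2 CPM untreated and at 36.9995 and 30.1 CPM in CCCP (log2 fold change 0.14, SE 0.229, edgeR adjusted p 0.807). Emx2 stood at 30.2 and 20.3 CPM untreated and at 28.0 and 26.8 CPM in CCCP (0.12, SE 0.212, edgeR adjusted p 0.823). In both genes untreated replicate 2 was the low library, and the CCCP libraries of Emx2 lay close together.

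Of the genital ridge factors, Gata4 was the most variable gene of the set. It stood at 15.1 and 9.78 CPM untreated and at 18.1 and 6.86 CPM in CCCP, so that the CCCP libraries were both the highest and the lowest of the 4. The fitted log2 fold change was 0.009 (SE 0.463, edgeR adjusted p 0.995), and CCCP over untreated was 1.20 for number 1 and 0.701 for number 2. Lhx9 stood at 24.9 and 22.7 CPM untreated and at 20.4 and 24.8 CPM in CCCP (log2 fold change -0.08, SE 0.165, edgeR adjusted p 0.858). The pair thus differed in spread, with Lhx9 the steadier gene across the 4 libraries.

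Of the nephron progenitor genes, Six2 had the highest log2 fold change of the set, at 0.31 (SE 0.327, edgeR adjusted p 0.676). It stood at 23.2 and 14.0 CPM untreated and at 28.7 and 17.4 CPM in CCCP, and CCCP over untreated was 1.24 for number 1 and 1.25 for number 2. CCCP replicate 2 was nevertheless below untreated replicate 1. Cited1 was nearly flat at 2.12 and 1.90 CPM untreated and 1.89 and 2.04 CPM in CCCP, on 71 to 106 reads per library, with a log2 fold change of -0.03 (SE 0.325, edgeR adjusted p 0.975). The difference between Six2 and Cited1 was not tested.

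**Figure D2:**
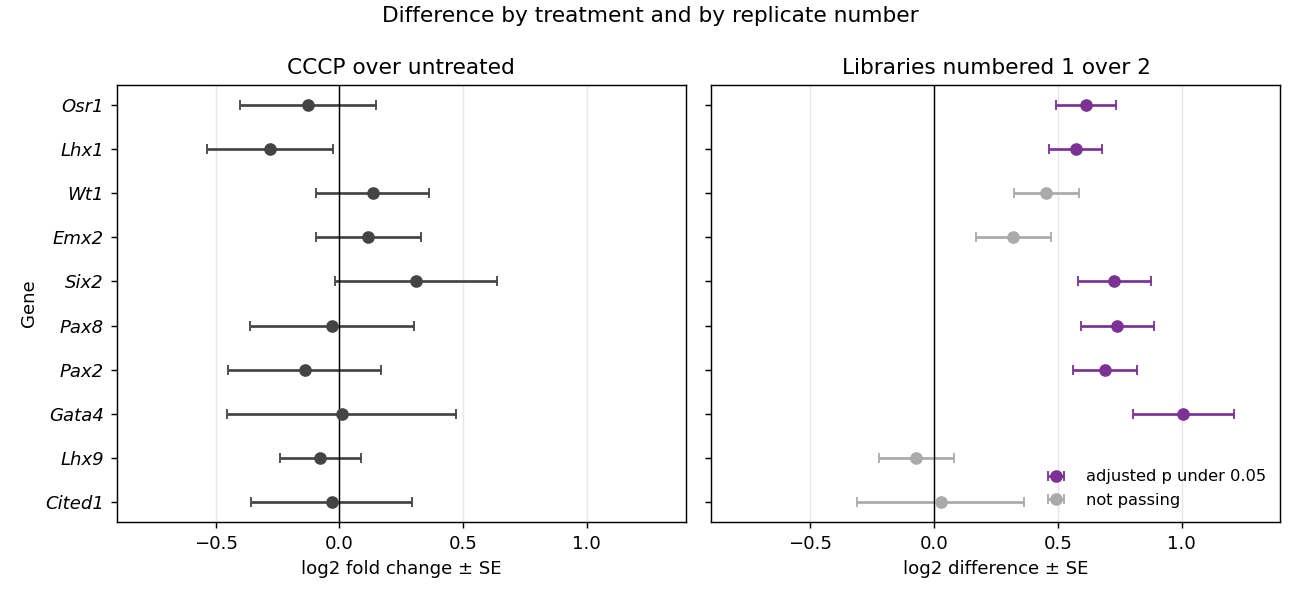
The left panel plots the log2 fold change of CCCP over untreated, and the right panel the log2 difference of libraries numbered 1 over those numbered 2, each with its standard error from edgeR over 4 libraries. Treatment differences run from -0.28 (Lhx1) to 0.31 (Six2) and none passes, while 6 genes pass on the right, between 0.57 (Lhx1) and 1.01 (Gata4).

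Leaving out a library leaves the replicate numbers unequal between the groups, so the treatment values below also carry the difference between the numbers. Without untreated replicate 1, the log2 fold changes of all 10 genes were at or above 0, from 0.0005 for Lhx9 to 0.74 for Six2. Without untreated replicate 2, 9 of the 10 were negative, down to -0.51 for Lhx1, and Six2 stood at 0.01. Leaving out CCCP replicate 1 gave -0.86 for Gata4 and -0.60 for Lhx1, and leaving out CCCP replicate 2 gave 0.54 for Gata4 and -0.02 for Lhx1. Every gene of the set changed sign in at least 1 of these 4 fits, and none passed in any of them. Within the numbers, the direction was the same in both for Lhx1, Osr1 and Pax8 (lower in CCCP) and for Wt1 and Six2 (higher), and it was opposite for the remaining 5.

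**Figure D3:**
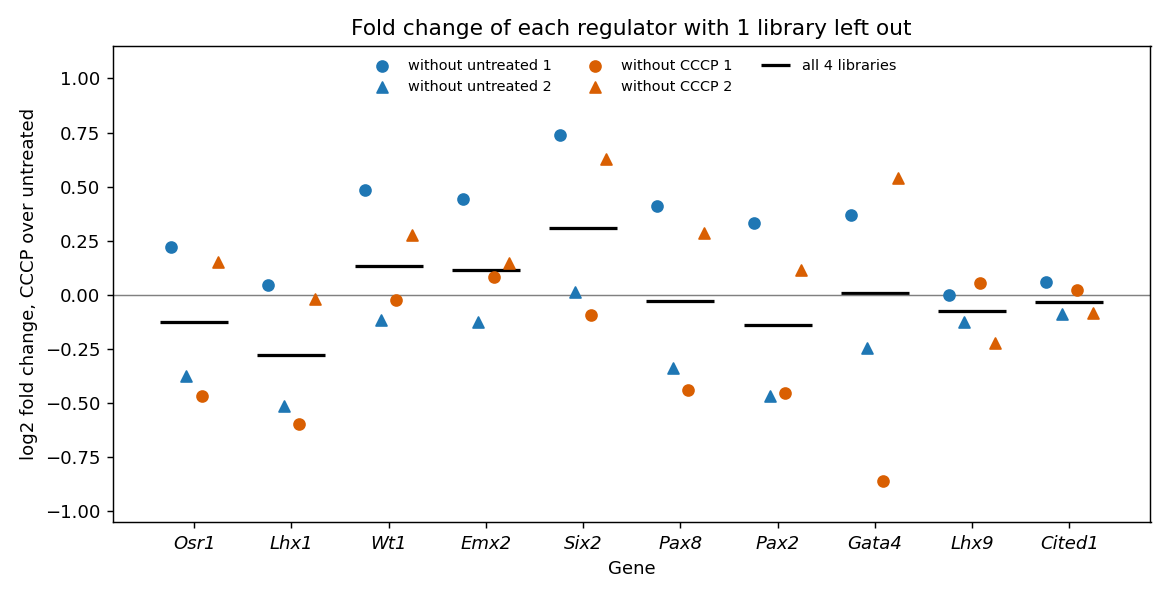
Log2 fold change of CCCP over untreated for each regulator, with all 4 libraries (black line) and with each library left out in turn (points). Points without untreated replicate 1 reach 0.74 (Six2) and points without CCCP replicate 1 fall to -0.86 (Gata4), so each gene has values on both sides of 0.

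The 10 genes summed to 103 and 98.0 CPM per kb in the libraries numbered 1 (untreated, CCCP) and to 67.2 and 68.9 in those numbered 2. As a share of that sum Osr1 took between 18.7% and 21.0% and Pax8 between 8.60% and 10.00% over the 4 libraries. Relative to their own size, the shares of the low genes ranged more widely. They ran from 2.69% to 5.00% for Gata4, from 2.15% to 3.72% for Lhx9 and from 1.27% to 1.95% for Cited1. Lhx1 took 20.05% and 20.8% of it untreated and 17.4% and 16.6% with CCCP. Six2 took 9.76% and 8.99% untreated and 12.7% and 11.0% in CCCP. The ratio of Six2 to Lhx1 per kb was 0.487 and 0.433 untreated and 0.728 and 0.659 in CCCP, and its groups did not overlap. This ratio was picked after its values were seen, from 45 ratios among the 10 genes, of which the groups did not overlap for 12. Of those 12, 6 involve Lhx1 and 5 involve Six2, their own ratio among both. Taken singly, 48.8% of all genes tested had groups that did not overlap. No such share was computed for ratios of other genes, so these counts are not read as particular to Lhx1 or Six2. The ratio of Six2 to Lhx1 carries no test.

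Most of the set differed between libraries that carry a different replicate number. Libraries numbered 1 lay above libraries numbered 2 in both groups for 8 of the 10 genes, against 30.9% of all genes tested, and the reverse held for 0 of the 10, against 33.2%. In an edgeR fit with group and number as terms, 6 of the 10 passed an adjusted p-value of 0.05 for the number, all higher in number 1, where 2.96% of all genes passed in that direction and 4.73% in either (1.77% higher in number 2). The fit was added after the values were seen. With so few libraries it leaves little from which to estimate the spread of a single gene. Its p-values therefore rest largely on a spread estimated across genes. What is left over also holds any difference between the groups in the effect of the number. What a number marks is not labelled, and the libraries numbered 1 are also the deeper ones, so depth and number cannot be told apart.

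Gata4 differed most, by 1.01 on the log2 scale (SE 0.205, edgeR adjusted p 0.0138), with a fold of 1.54 in untreated and 2.64 in CCCP explants. Pax8 and Pax2 differed by 0.74 and 0.69, with folds of 1.69 and 1.76 untreated and of 1.65 and 1.49 in CCCP (edgeR adjusted p 0.0120 and 0.00880). Six2 differed by 0.73, with nearly equal folds of 1.67 and 1.65 (edgeR adjusted p 0.0125). The 2 genes highest per kb came next, Osr1 at 0.61 with folds of 1.52 and 1.54 and Lhx1 at 0.57 with folds of 1.48 and 1.49 (edgeR adjusted p 0.0120 and 0.00902). These 6 genes include all 4 early nephric regulators together with 1 genital ridge gene and 1 progenitor gene.

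The remaining 4 did not pass. Wt1 was higher in number 1 in both groups, by 1.52-fold and 1.23-fold, with a log2 difference of 0.45 (edgeR adjusted p 0.0663), and it passed with no library scaling (adjusted p 0.0380) and with no filter on low counts (0.0260). Emx2 was higher by 1.49-fold in untreated but 1.05-fold in CCCP explants (log2 difference 0.32, edgeR adjusted p 0.272). Lhx9 and Cited1 crossed, with folds of 1.10 and 1.12 untreated and 0.825 and 0.929 in CCCP, and log2 differences of -0.07 (SE 0.150) and 0.03 (SE 0.336). The genital ridge pair was therefore split, with Gata4 passing and Lhx9 not, although the difference between these genes was not itself tested.

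Markers of other tissues were read by number too. The skeletal muscle, gut epithelium and endothelial sums differed by number in untreated explants but little in CCCP explants. The mesenchymal list had 7 of its 8 genes higher in number 1 in both groups, where 30.9% of all genes were, and 3 that passed. Over all genes tested, 2.96% passed higher in number 1 and 1.77% higher in number 2. The mesenchymal sum was 5516 and 3176 CPM in untreated replicates 1 and 2 and 4664 and 3576 CPM in CCCP replicates 1 and 2. The skeletal muscle list summed to 572 and 386 CPM untreated and to 522 and 507 CPM in CCCP, with 2 of 7 genes passing higher in number 1. The gut epithelium list went the other way, at 107 and 220 CPM untreated and 145 and 155 CPM in CCCP, with 2 of 7 genes passing higher in number 2. The endothelial list had 0 of 9 genes passing, where 4.73% of all genes passed in either direction. Its sums were 506 and 651 CPM untreated and 529 and 509 CPM in CCCP. For the hepatic list the sum in number 1 was 1.75 times that in number 2 untreated and 0.502 times in CCCP. The same ratios were 1.46 and 1.01 for the leukocyte list and 0.919 and 0.711 for the erythroid list. They were 0.954 and 1.02 for the neural crest and sympathoadrenal list. In the leukocyte list 5 of 7 genes were higher in number 1 in both groups, and 1 passed in that direction. In the erythroid list 5 of 8 genes were higher in number 2 in both groups, where 33.2% of all genes were. In that list 1 gene passed, higher in number 1. The hepatic list had 1 of 10 genes passing, higher in number 1. The neural crest and sympathoadrenal list had 1 of 8, higher in number 2. None of these marker genes was at 0 in a group. Their part in the differences of the regulators was not tested.

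Genes that work with the regulators were read from 7 lists of 73 genes, of which 69 passed the filter. None of the 69 passed for CCCP in edgeR. At an unadjusted p under 0.05 there were 3 higher and 1 lower, or 5.8% of them against 14.6% of all genes. The groups did not overlap for 24 of them (16 above and 8 below in CCCP), or 34.8% against 48.8% of all genes, so both shares were below the background. Their median log2 fold change was 0.03, and for the separate lists it lay between -0.22 (renal vesicle, tubule and podocyte) and 0.26 (gonadal ridge and coelomic epithelium).

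In the list of the nephric duct and ureteric bud (12 tested, median log2 fold change 0.12), Sim1 had the largest absolute log2 fold change among genes whose groups did not overlap. Sim1, a basic helix-loop-helix factor, stood at 14.1 and 23.8 CPM untreated and at 6.03 and 7.03 CPM in CCCP, a log2 fold change of -1.53 (SE 0.292, edgeR adjusted p 0.166). It passed in DESeq2, with an adjusted p of 0.000212. Spry1, an inhibitor of receptor tyrosine kinase signalling and the highest of the list per kb, stood between 35.4 and 37.5 CPM in all 4 libraries.

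In the nephrogenic mesenchyme list (12 tested, median 0.16), the homeobox genes Hoxa11 and Hoxc11 were above the untreated range in CCCP. Hoxa11 stood at 4.57 and 11.3 CPM untreated and 12.8 and 13.6 CPM in CCCP (log2 fold change 0.74, edgeR adjusted p 0.447). Its value ran from 0.23 without untreated replicate 1 to 1.55 without untreated replicate 2. Hoxc11 had a log2 fold change of 0.53 (edgeR adjusted p 0.426). Meox1, a homeobox gene best known from the somites and the highest of the list per kb, overlapped between groups (0.17, edgeR adjusted p 0.871). Among renal vesicle, tubule and podocyte genes (11 of 12 tested), Wnt4, a secreted signal that turns mesenchyme into tubule epithelium, stood at 44.4 and 56.9 CPM untreated and 67.6 and 68.8 CPM in CCCP. Its log2 fold change was 0.43 (SE 0.149, edgeR adjusted p 0.296). Pou3f3, a POU homeodomain factor of the nephron, had -0.34 (edgeR adjusted p 0.396).

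In the gonadal ridge and coelomic epithelium list (14 tested), Krt19, a keratin of the coelomic lining and other epithelia, stood at 45.0 and 48.1 CPM untreated and 60.5 and 82.6 CPM in CCCP, a log2 fold change of 0.62 (SE 0.171, edgeR adjusted p 0.241). Tcf21, a basic helix-loop-helix factor of the mesenchyme, had 0.46 (edgeR adjusted p 0.386). Of the 8 genes of gonadal sex differentiation (median -0.12), Irx3 and Cyp26b1, the latter an enzyme that degrades retinoic acid, had 0.40 and 0.14 (edgeR adjusted p 0.307 and 0.648). Star, which carries cholesterol into mitochondria for steroid synthesis, stood at 7.25 to 9.80 CPM, the highest per kb of the 5 adrenal and steroidogenic genes tested, and had a log2 fold change of 0.04. Tfap2c, a factor of primordial germ cells, had -0.19 over 4.51 to 8.42 CPM.

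By replicate number, 9 of the 69 related genes passed, 6 higher in number 1 and 3 higher in number 2. That is 13% of them, against 4.73% of all genes in either direction, 2.96% higher in number 1 and 1.77% higher in number 2. They are named after their values were seen. Nr5a1, the nuclear receptor that defines the adrenogonadal primordium, stood at 4.85 and 1.68 CPM untreated and at 6.18 and 1.65 CPM in CCCP (log2 difference 1.71, edgeR adjusted p 0.00400). Amhr2 and Amh, the receptor and the hormone that remove the Müllerian duct, differed by 1.37 and 2.50, and the duct signal Wnt11 and the podocyte phosphatase Ptpro by 0.78 and 0.69 (edgeR adjusted p from 0.00434 to 0.0253). Amh rested on few reads, 134 and 15 in untreated and 117 and 18 in CCCP replicates 1 and 2. For Amhr2 there were 211 and 59 reads untreated and 349 and 104 in CCCP. The germ cell gene Dppa3 had 16 and 22 reads in the libraries numbered 1 and 0 in both numbered 2, which is at least 3.98-fold higher untreated and at least 5.48-fold higher in CCCP against a floor of 3 reads per library.

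The genes higher in number 2 were Fgf8, Meox1 and Etv4. Fgf8, a secreted growth factor, stood at 0.399 and 3.42 CPM untreated and at 0.412 and 2.53 CPM in CCCP (log2 difference -2.85, edgeR adjusted p 0.00165). Meox1 differed by -0.96 and Etv4, an ETS factor downstream of Ret and of fibroblast growth factors, by -0.71 (edgeR adjusted p 0.00284 and 0.0349). The gonadal genes that passed were higher in number 1, where Gata4 was higher too, but the sums of their lists were not. The gonadal ridge list summed to 587 and 619 CPM in untreated and 688 and 693 CPM in CCCP replicates 1 and 2. The sex differentiation list summed to 176 and 188 CPM and to 195 and 197 CPM. In the gonadal ridge list 4 of 14 genes were higher in number 1 in both groups, where 30.9% of all genes were. In number 2 it was 5 of 14, where 33.2% of all genes were. Both counts were thus close to the shares of all genes. The duct list and the renal vesicle, tubule and podocyte list each held 1 passing gene in each direction. The mesenchyme list held 1 passing gene, higher in number 2. The sums of the duct and mesenchyme lists did not follow the regulators, at 248 and 276 CPM and 279 and 370 CPM in untreated replicates 1 and 2, and at 258 and 258 CPM and 313 and 338 CPM in CCCP replicates 1 and 2. The renal vesicle, tubule and podocyte list summed to 359 and 391 CPM untreated and to 351 and 342 CPM in CCCP. Such sums rest mostly on abundant genes. In the gonadal ridge list Nr2f2 had a mean of 182 CPM and Nr5a1 a mean of 3.59 CPM. The sums therefore do not measure the amount of a tissue.

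**Figure D4:**
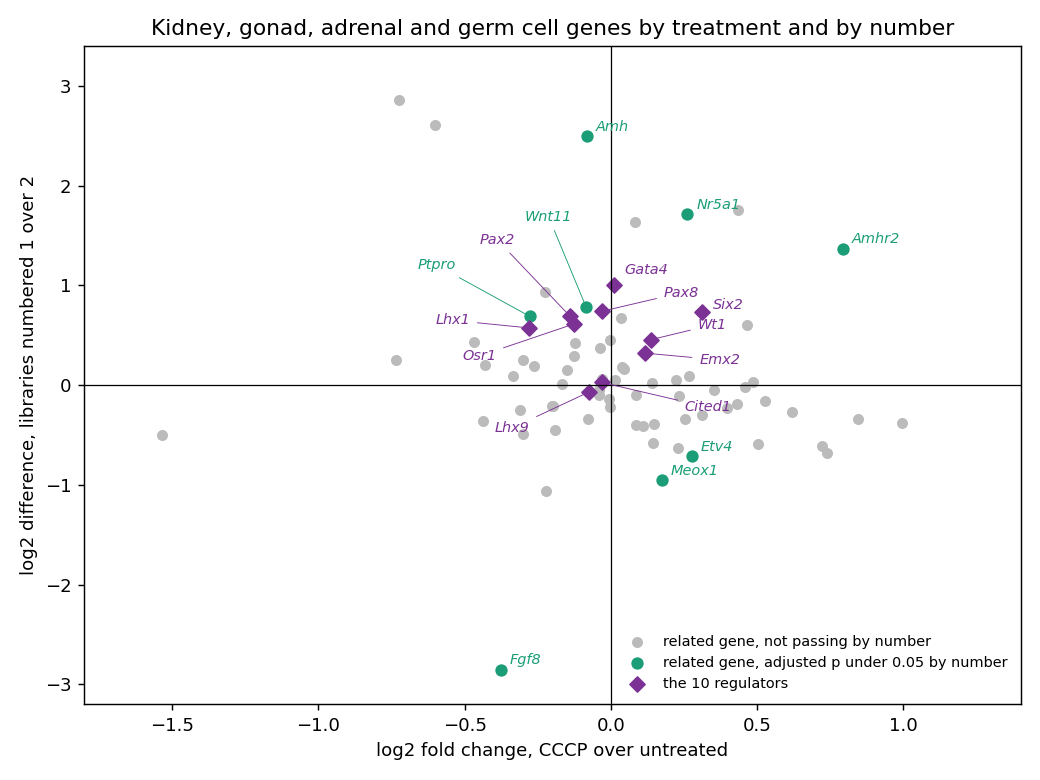
Each point is a gene, placed by its log2 fold change of CCCP over untreated (horizontal) and its log2 difference of libraries numbered 1 over 2 (vertical), for the 10 regulators (purple diamonds) and the tested related genes (circles, green where the number passes). Dppa3 lies outside the vertical range. The regulators lie close to 0 on the horizontal axis, between -0.28 and 0.31, and 6 of them lie above 0.5 on the vertical axis.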

How the data were processed

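Poly(A) RNA of 4 AGM explant libraries was read from raw counts of reads per gene, which the authors made with featureCounts 2.0.3 on the exons of the mm10 RefSeq annotation, per the file headers. The library kit was directional, per the labels' protocols, but neither a strand option nor counting of read pairs as fragments was set, and multi-mapping reads were not counted, per the file headers. HISAT2 and SAMtools are named without versions in the submitters' processing notes. The alignment named in the file headers for untreated replicate 1 is spelt unlike its title, and GEO's link of file to sample was followed. All 10 genes had the same coordinates in the RefSeq table of that build.

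Counts were tested with edgeR 4.0.16 (glmQLFit, glmQLFTest) in R 4.3.3, with TMM scaling (factors 0.966 to 1.04), filterByExpr (minimum count 10, minimum total 15) and group as the sole term, two-sided, over 19837 genes. DESeq2 1.42.0 served as an alternative. A standard error is the log2 fold change divided by the square root of F. CPM used TMM scaling, and a count of 3, taken as a floor, is 0.0599 to 0.0827 CPM, for counting error only. With 2 libraries a group an exact permutation test cannot go below p = 0.333, so none is given. From each related list, the text names the 2 genes with the largest absolute fold change whose groups do not overlap, and the gene highest per kb, all with mean CPM not under 1; a gene that this rule picks is not reported here. The members and lists were chosen with earlier results of these data known.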

Additional observations from a re-analysis of the deposited data

How the results depend on the processing

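For CCCP against untreated, 0 of the 10 regulators passed in any of the 11 other fits (lowest adjusted p 0.110), while the number of all genes passing moved from 0 to 594 in DESeq2, 1107 with no filter on low counts, 2118 with the replicate block and 1297 with the replicate block and the length trend removed, and lay between 1 and 34 when 1 library was left out. The cause was not tested. Deviations from the group mean correlated at 0.333 between libraries of the same number, across genes, which are not independent replicates. With 2 pairs and no label behind them, the numbers were not taken as pairing the samples. The p-values of the replicate block, too, rest largely on a spread estimated across genes. The replicate block left Lhx1 at -0.28 (adjusted p 0.110) and Six2 at 0.31 (adjusted p 0.180), and it called Sim1, Hoxa11, Wnt4, Krt19 and Irx3 among the related genes named (adjusted p from 0.000651 to 0.0423). With the length trend removed as well, Hoxa11 (adjusted p 0.0890) and Irx3 (0.0714) no longer passed and Cyp26b1 did (log2 fold change 0.45, adjusted p 0.0463). With no filter on low counts Sim1 (2.58e-07) and Krt19 (0.00355) passed. Gata4 turned to -0.10 with the replicate block, to -0.11 when the length trend was also removed, to -1.23e-05 with the length trend removed and to -0.0448 with no library scaling, and Lhx9 to 0.17 with the length trend removed and to 0.165 with the block added. Star turned to -0.016 with no library scaling. With 1 library left out, which leaves a lone library assumed to vary like the other group, the median of the 10 ran from -0.27 to 0.35, Wt1 from -0.12 to 0.48, Pax2 from -0.47 to 0.33, Pax8 from -0.44 to 0.41, Lhx1 from -0.60 to 0.0440, Lhx9 from -0.22 to 0.0573, Emx2 from -0.12 to 0.44, Gata4 from -0.86 to 0.54, Osr1 from -0.47 to 0.22, Six2 from -0.0950 to 0.74, Cited1 from -0.0881 to 0.0587, Spry1 from -0.0617 to 0.00723, Meox1 from -0.33 to 0.99, Star from -0.20 to 0.24 and Tfap2c from -0.57 to 0.34. For the replicate number, the 6 regulators stayed past the threshold in the 5 other fits, which gave 6 or 7 members, and all genes passing ran from 632 (DESeq2) to 1072 except with no filter on low counts, which gave 1648. Etv4 missed with the length trend removed (adjusted p 0.0517), and Dppa3 had no adjusted p in DESeq2. Depth limits Cited1 most, at 71 to 106 reads.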
